A study of Homo sapiens with 24 samples.

Results

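The effect of ITE, a ligand that activates the aryl hydrocarbon receptor (AHR), on RNA levels was examined in hypoxic RCC4+VHL cells. The comparison holds 12 of the 24 libraries of the series, namely 6 replicates of hypoxia + ITE and 6 of hypoxia + DMSO. Its libraries were set by the labels alone, but the comparison was chosen with earlier results of these data known. RCC4+VHL is a clone of a clear cell renal cancer line, stably transfected with VHL so that oxygen again controls HIF-α. All 12 cultures had been grown in phenol red-free medium with charcoal-treated serum. They then spent 6 h at 0.5% oxygen with either 100 nM ITE or 0.1% DMSO, the solvent. The other 12 libraries received the same agents in normoxia and appear here only where the effect of ITE is set beside that in normoxia. The study calls the replicates independent, but all are from 1 clone, so p-values measure the spread between cultures of that clone.

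AHR and the HIF-α subunits are transcription factors of the same bHLH-PAS family. AHR waits in the cytoplasm with HSP90 until a ligand sends it to the nucleus, whereas HIF-α proteins are hydroxylated in oxygen, bound by VHL and destroyed. Both bind DNA as dimers, chiefly with HIF-1β/ARNT, AHR at xenobiotic response elements and HIF at hypoxia response elements. The comparison therefore asks what AHR activation does to its own targets when HIF is active, and what it does to HIF targets.

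The hypoxic libraries differed widely in depth and quality. Total counts ranged from 770094 to 37995687 (median 5928721) in hypoxia + DMSO and from 1357702 to 87404330 (median 18149230) in hypoxia + ITE, and 3 counts corresponded to between 0.0343 and 3.90 CPM (a gene's count scaled to the size of its library, with TMM factors). Such floors cover counting error only. Hypoxia + ITE replicate 6 stood farthest from its group. Its genes deviated from the group median by a median of 0.676 on the log2 scale, and the deviations had a rank correlation of 0.66 with GC content. Hypoxia + ITE replicate 3 and hypoxia + DMSO replicate 1 had the next lowest quality weights (0.278 and 0.370, against 0.103 for hypoxia + ITE replicate 6), and hypoxia + DMSO replicate 2 was the shallowest. These 4 libraries are called the 4 doubted libraries from here on, and log2 fold changes without them are said to be over 8 libraries. The biological coefficient of variation, the spread of a gene between replicates, was 29.0% over the 12 libraries and 14.7% over the other 8.

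**Figure D1:**
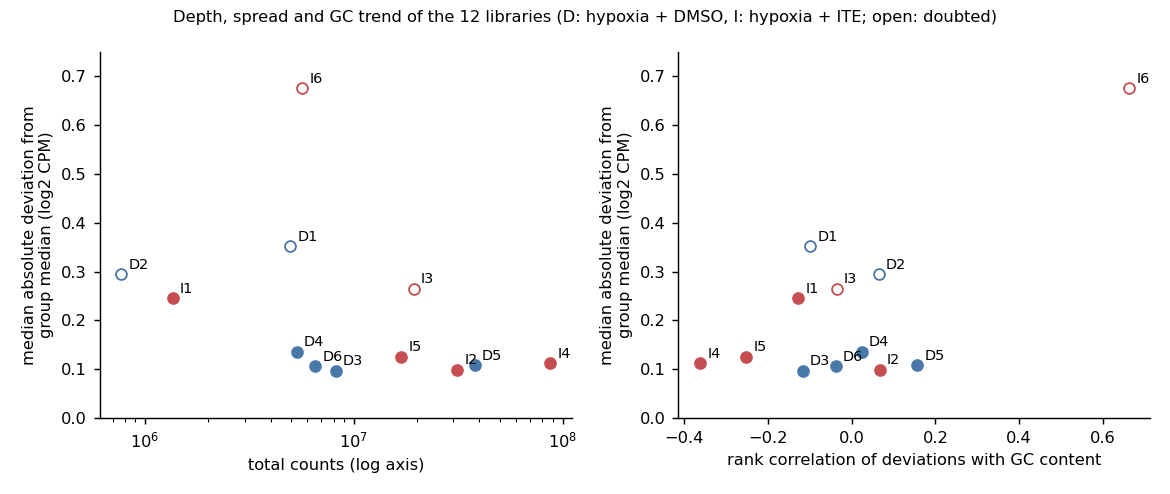
Median absolute deviation of each library's genes from its group median (log2 CPM) against total counts on a log axis (left) and against how strongly those deviations ranked with GC content (Spearman, right); D is hypoxia + DMSO, I is hypoxia + ITE, the number is the replicate and open circles are the 4 doubted libraries. Hypoxia + ITE replicate 6 lies at 0.676 with a correlation of 0.66, apart from the other 11 libraries.

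The labels were checked against known genes. NDRG1, a hypoxia-induced gene, lay between 206.7 and 376 CPM in the 12 hypoxic libraries and between 27.9 and 44.1 CPM in the 12 normoxic ones, when all 24 were scaled together. Of 13 renal carcinoma markers, 12 reached a mean of 1 CPM or more (CA12 did not), and their summed level was 5281 to 6308 CPM in hypoxia + DMSO and 5133 to 7225 CPM in hypoxia + ITE. Of 15 endothelial, blood and stromal markers, 3 reached that level (CD68, PDGFRB and ACTA2), while PECAM1, PTPRC, HBB and DCN were at 0 in all 12 libraries. These 15 summed to 44.7 to 72.8 CPM in hypoxia + DMSO and to between 44 and 92.2 CPM in hypoxia + ITE.

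Of 23106 gene symbols, 11645 had at least 10 counts in at least 6 of the 12 libraries and were tested by edgeR's quasi-likelihood method. CYP1B1 alone was higher in hypoxia + ITE at a Benjamini-Hochberg adjusted p-value under 0.05 (0.00859% of genes tested), and 0 genes were lower. Before adjustment, 246 genes had p-values under 0.05 with a positive log2 fold change (2.11%) and 48 with a negative one (0.412%). These counts were 83 and 44 without hypoxia + ITE replicate 6 alone, 150 and 95 without the 4 doubted libraries, and 140 and 122 with offsets for GC content and length. Some other fits called more genes, all higher in these: 5 in DESeq2 (0.0429%), 11 in limma with sample quality weights (0.0945%), and 3 in edgeR without the 4 doubted libraries (0.0258%). In edgeR over the 12 libraries, other scalings, no filter, and GC and length offsets each called CYP1B1 alone. A fit to all 24 libraries, which borrows the smaller spread of the normoxic libraries, called 7 (0.0601%). On counts simulated for the 12 libraries with 200 of 11645 genes changed, edgeR recovered 100% of the genes given a log2 fold change of 2, 47.9% of those given 1 and 0% of those given 0.5. With the 8 remaining libraries these shares were 95.7%, 85.1% and 49.2%, so in the simulated counts most changes of 0.5 went undetected. The simulation drew each gene independently, with no GC trend shared by the genes of a library. It also gave 107 and 164 calls, far more than the data, which loosens the adjusted threshold. These shares therefore do not measure what was detectable in the data.

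CYP1B1, an AHR-induced cytochrome P450 that oxidises oestrogens and polycyclic hydrocarbons, lies on the minus strand of chromosome 2 (GRCh37 chr2:38294116-38337044). Its level was 30.5 to 66.5 CPM (median 41.7) in hypoxia + DMSO and 103 to 295 CPM (median 256) in hypoxia + ITE. Every library with ITE was above every library with DMSO, and the lowest of them was hypoxia + ITE replicate 6. The rise was 5.06-fold (log2 fold change 2.34, SE 0.25, 95% confidence interval 1.79 to 2.89, n = 6 per group), with an edgeR adjusted p-value of 0.000394. Without the 4 doubted libraries the log2 fold change was 2.72 (SE 0.15, edgeR adjusted p-value 9.00e-08). CYP1B1 passed the threshold in all 32 alternative fits, with a log2 fold change between 2.22 and 2.74.

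After CYP1B1, the AHR targets with the largest log2 fold changes were BMF, CYP27A1, ASB2 and ALDH1A3, and none of these 4 passed the threshold in the 12-library edgeR fit. ALDH1A3, which makes retinoic acid from retinaldehyde, was at 8.61 to 10.7 CPM (median 10.2) in hypoxia + DMSO and 12.4 to 30.8 CPM (median 20.5) in hypoxia + ITE, with no overlap. Its log2 fold change was 1.05 (SE 0.21, edgeR adjusted p-value 0.312), and it passed in DESeq2 (adjusted p-value 0.00158) and with quality weights in limma (adjusted p-value 0.00122). Over the 8 remaining libraries it was 1.10 (SE 0.18, edgeR adjusted p-value 0.0601). CYP27A1, the mitochondrial sterol 27-hydroxylase of bile acid synthesis, was at 4.55 to 16.0 CPM (median 8.64) with DMSO and 12.3 to 34.4 CPM (median 24.6) with ITE. Of its 6 ITE libraries, 5 lay above all DMSO libraries. The log2 fold change of CYP27A1 was 1.39 (SE 0.33), and it passed in 4 of the 32 alternatives, among them quality weights in limma (adjusted p-value 0.0341). Over the 8 remaining libraries it was 1.70 (SE 0.30, edgeR adjusted p-value 0.0798).

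ASB2, the substrate-binding subunit of an E3 ubiquitin ligase, was at 4.37 to 7.88 CPM (median 5.31) with DMSO and 11.2 to 18.3 CPM (median 15.4) with ITE, again without overlap. Its log2 fold change was 1.33 (SE 0.23, edgeR adjusted p-value 0.0730), and 1.13 without the 4 doubted libraries (edgeR adjusted p-value 0.301). It passed in DESeq2 (adjusted p-value 0.000191). BMF, a BH3-only promoter of apoptosis, was a low gene, at 0 to 1.5 CPM with DMSO and 0.936 to 5.75 CPM with ITE, and 4 of the 6 ITE libraries exceeded all DMSO libraries. The 0 came from the shallowest library, hypoxia + DMSO replicate 2, where 3 counts are worth 3.90 CPM. BMF had a log2 fold change of 1.75 (SE 0.51), or 2.07 over 8 libraries, and passed in none of the fits. The 5 AHR targets that were also followed by RT-qPCR in the study (CYP1B1, ALDH1A3, ASB2, BMF and CYP27A1) all had positive log2 fold changes, with a median of 1.39 and of 1.70 without the 4 doubted libraries. They were followed as AHR targets in the study of these cells, so this direction is not independent evidence.

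TIPARP, a mono-ADP-ribosyltransferase that feeds back on AHR, was less uniform. Its level was 42.6 to 63.7 CPM (median 51.8) with DMSO and 39.1 to 144 CPM (median 81.9) with ITE. Of the 6 ITE libraries, 5 were above all DMSO libraries and hypoxia + ITE replicate 6 was below all of them. The log2 fold change was 0.67 (SE 0.23, edgeR adjusted p-value 0.969) over 12 libraries and 0.86 (SE 0.15, edgeR adjusted p-value 0.0855) over 8, and TIPARP passed with quality weights in limma (adjusted p-value 0.0112). AHRR, the AHR repressor and a classical AHR target, was near the detection floor, at 0 to 2.55 CPM with DMSO and 0.219 to 2.34 CPM with ITE, and had a log2 fold change of -0.40 (SE 0.59), or -0.61 over 8 libraries. NQO1, a quinone reductase shared by AHR and NRF2, had a log2 fold change of 0.31 (SE 0.19), or 0.23 over 8 libraries.

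**Figure D2:**
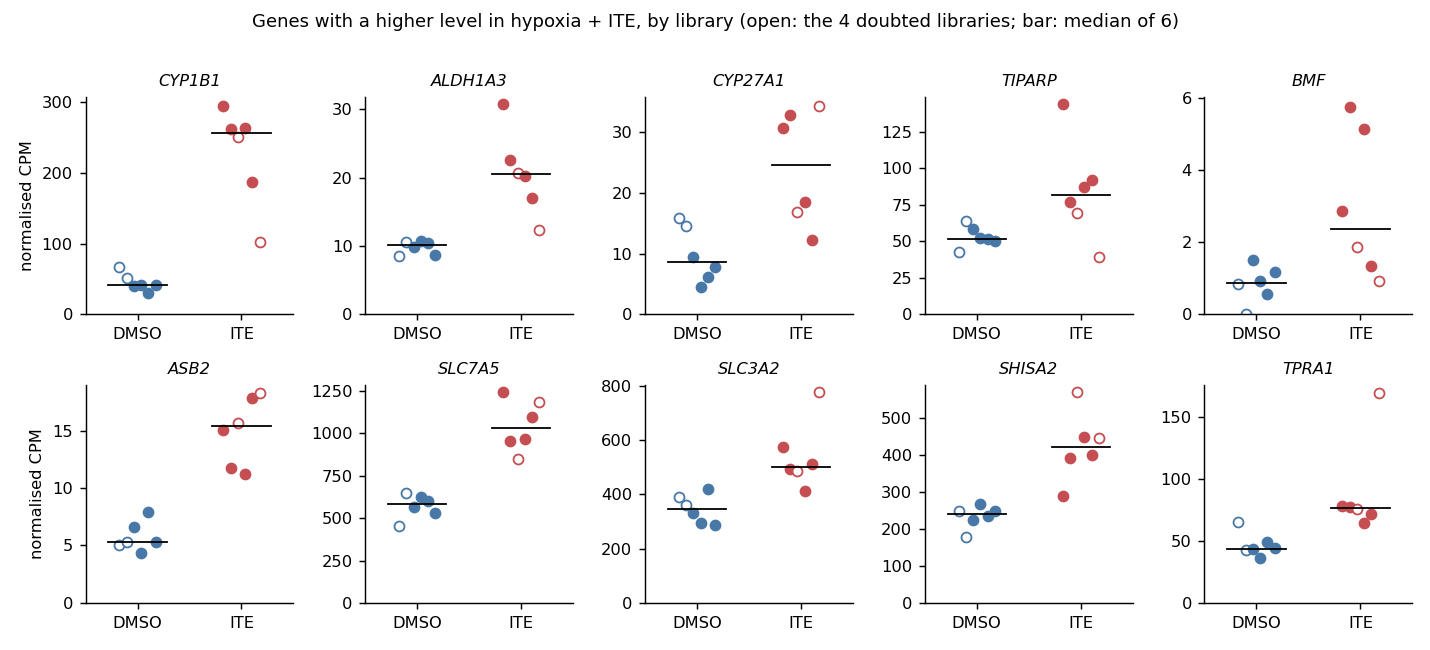
Normalised CPM (linear axes from 0) of 10 genes in the 6 hypoxia + DMSO and 6 hypoxia + ITE libraries; each point is a library, open circles are the 4 doubted libraries and bars are medians of 6. For CYP1B1, ALDH1A3, ASB2, SLC7A5 and SHISA2 every ITE library lies above every DMSO library, whereas TIPARP in hypoxia + ITE replicate 6 (39.1 CPM) lies below them.

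Of the 24 AHR targets listed, 14 were tested. Of these, 9 had a positive log2 fold change and 5 a negative one, with a median of 0.49, beside 6148 positive and 5497 negative and a median of 0.02 over all 11645 genes. Without the 4 doubted libraries 12 were positive and the median was 0.86. The list holds SLC7A5, ASB2, ALDH1A3, CYP27A1, BMF and TIPARP besides CYP1B1, so 7 had an unadjusted p-value under 0.05, all higher. Over all genes tested, 2.11% were higher at that cutoff. CYP1B1, ALDH1A3, ASB2, BMF and CYP27A1 were followed as AHR targets in the study of these cells, so the list median is not independent evidence. The other tested members were SLC7A5 (0.88), TIPARP (0.67), NQO1 (0.31), STC2 (0.31), CDKN1B (-0.04), VAV3 (-0.09), UGT1A6 (-0.13), NEDD9 (-0.33) and AHRR (-0.40) over the 12 libraries. CYP1A1, the best known AHR target in liver, had 1 count in all over the hypoxia + DMSO libraries and 4 over the hypoxia + ITE libraries, and CYP1A2 had 0 and 2. ALDH3A1, CYP2S1, CYP19A1 and SLC10A1 were at 0 in all 12 libraries. SERPINB2, a serpin that AHR ligands induce in other cells, had 11 and 138 counts, but only 4 libraries reached 10 counts and the gene was not tested. Behind these sums lie 63797061 counts in hypoxia + DMSO and 162043543 in hypoxia + ITE.

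SLC7A5 and SLC3A2 encode the light and heavy chains of LAT1, the exchanger that imports large neutral amino acids. SLC7A5 was at 454 to 649 CPM (median 585) in hypoxia + DMSO and 848 to 1244 CPM (median 1032) in hypoxia + ITE, without overlap. It was 1.84-fold higher (log2 fold change 0.88, SE 0.15, 95% confidence interval 0.55 to 1.21), with an edgeR adjusted p-value of 0.0730. Over the 8 remaining libraries the value was 0.87 (SE 0.10, edgeR adjusted p-value 0.000969), and SLC7A5 passed in 9 of the 32 alternatives, DESeq2 included (adjusted p-value 5.07e-06). SLC3A2 was at 288 to 420.0 CPM (median 347) with DMSO and 412 to 779 CPM (median 502) with ITE, and 5 of the 6 ITE libraries were above all DMSO libraries. Its log2 fold change was 0.64 (SE 0.17), or 0.57 without the 4 doubted libraries, and it passed only with quality weights in limma (adjusted p-value 0.0486).

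The integrated stress response, which also raises both transporter genes, was set beside them. Of 27 tested members of that list, 12 had a positive and 15 a negative log2 fold change, and the median was -0.05 (-0.01 without the 4 doubted libraries). Only SLC7A5 and SLC3A2 had an unadjusted p-value under 0.05, both higher, beside 2.11% higher over all genes tested. ATF4, the transcription factor of the response, had a log2 fold change of 0.08 (-0.02 over 8 libraries), ASNS, asparagine synthetase, had -0.13 (-0.08), and DDIT3, the CHOP factor, had 0.12 (-0.09). PPP1R15A had 0.28 (0.12) and SARS had 0.32 (-0.05). Whether this response took part in the rise of SLC7A5 and SLC3A2 was not tested.

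SHISA2, TPRA1, MTSS1 and BBS12 also passed in some fits. SHISA2, an endoplasmic reticulum protein that retains FGF and Wnt receptors, was at 179 to 267 CPM (median 241) with DMSO and 289 to 568 CPM (median 422) with ITE. Its groups did not overlap, its log2 fold change was 0.86 (SE 0.16, edgeR adjusted p-value 0.187), and 0.67 without the 4 doubted libraries (edgeR adjusted p-value 0.0601). DESeq2 called SHISA2 (adjusted p-value 0.000878). TPRA1, a transmembrane protein, was at 36.6 to 65.3 CPM with DMSO and 64.7 to 169 CPM with ITE, where the highest value was again hypoxia + ITE replicate 6. Without the 4 doubted libraries the ranges were 36.6 to 49.2 and 64.7 to 78.0 CPM, and TPRA1 then passed in edgeR (log2 fold change 0.73, SE 0.11, adjusted p-value 0.0400). Over the 12 libraries it did not (0.92, SE 0.23, edgeR adjusted p-value 0.969). MTSS1, an actin and membrane-bending protein, and BBS12, a chaperonin-like protein of the cilium, passed with quality weights in limma (adjusted p-values 0.00978 and 0.0486) at log2 fold changes of 1.63 and 0.74. In edgeR MTSS1 had 1.36 (SE 0.39, adjusted p-value 0.969) over 12 libraries and 1.60 (adjusted p-value 0.515) over 8, and passed in 2 of the 32 alternatives. BBS12 had 0.58 (SE 0.22, edgeR adjusted p-value 0.969) and 0.67, and passed in 1.

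The promoters of these genes were searched for GCGTG, the core of the xenobiotic response element, on either strand, in windows from 250 bases before to 50 bases after the starts that RefSeq lists (GRCh38.p14 table). Of 12 genes looked up, 10 were matched and placed on GRCh37 by exact match. CYP1B1 and MTSS1 were not matched. In the first listed window of SLC7A5, ALDH1A3, TIPARP, BMF and BBS12 the motif was present, and in that of SLC3A2, ASB2, SHISA2, CYP27A1 and TPRA1 it was absent. Over all listed starts, it was present in 2 of the 3 windows of SLC3A2 and in 1 of the 2 of TPRA1. For TIPARP it was present in 1 of 3 windows and for BMF in 1 of 2, the first window in both cases. The motif is common, and 49.1% of the 12764 windows listed for the tested genes held it. ACGTG, the core of the hypoxia response element, which shares no more than the last 4 letters with it, was present in 25.7% of those windows and, among the 10 first windows, in SLC7A5 and ASB2. The 3 windows with a motif that belong to genes called in at least 1 fit and listed as AHR targets are shown to let the positions be read. Each is written 5′ to 3′ on the gene's strand, with GCGTG or its complement CACGC in capitals. They lie at chr16:87903064-87903363 (minus strand), chr15:101419786-101420085 (plus strand) and chr3:156392129-156392428 (plus strand).
SLC7A5: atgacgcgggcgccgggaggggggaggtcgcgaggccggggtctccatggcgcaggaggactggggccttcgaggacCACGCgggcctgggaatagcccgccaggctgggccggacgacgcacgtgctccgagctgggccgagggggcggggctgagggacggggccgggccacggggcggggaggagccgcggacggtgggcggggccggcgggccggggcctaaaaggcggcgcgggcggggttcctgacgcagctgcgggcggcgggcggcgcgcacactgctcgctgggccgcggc
ALDH1A3: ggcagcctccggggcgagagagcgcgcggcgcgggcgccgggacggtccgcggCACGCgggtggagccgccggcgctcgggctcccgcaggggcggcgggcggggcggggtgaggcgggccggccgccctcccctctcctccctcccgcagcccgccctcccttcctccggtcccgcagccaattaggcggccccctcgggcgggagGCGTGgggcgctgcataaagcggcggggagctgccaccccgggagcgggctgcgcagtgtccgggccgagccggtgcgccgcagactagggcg
TIPARP: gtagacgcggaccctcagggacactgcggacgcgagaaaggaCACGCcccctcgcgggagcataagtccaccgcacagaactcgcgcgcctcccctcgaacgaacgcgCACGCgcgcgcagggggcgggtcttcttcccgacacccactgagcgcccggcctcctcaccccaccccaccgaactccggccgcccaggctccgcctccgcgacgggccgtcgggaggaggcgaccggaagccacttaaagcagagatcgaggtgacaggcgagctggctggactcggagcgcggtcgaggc
Counted from the start site, the first base of the match lay at -173 in SLC7A5, at -197 and -43 in ALDH1A3, and at -208 and -142 in TIPARP. A match of these letters is not a bound site, and binding was not measured in the counts.

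No gene was lower with ITE in the 12-library edgeR fit. Of all genes tested, 18 had every ITE library above every DMSO library (0.155%) and 11 had every ITE library below every DMSO library (0.0945%). Among the latter were CTGF, NPPB, DUSP1 and CPSF6. With so many genes tested, some separate completely by chance, and whether the counts of 18 and 11 exceed chance was not tested. A lack of overlap in a gene picked from all those tested is therefore not evidence of a change by itself. NPPB, the precursor of B-type natriuretic peptide, was at 11.5 to 28.4 CPM (median 14.5) with DMSO and 0 to 11.3 CPM (median 8.61) with ITE. The 0 was hypoxia + ITE replicate 1, where 3 counts are worth 2.21 CPM. Its log2 fold change was -1.10 (SE 0.39, edgeR adjusted p-value 0.969) and -0.96 without the 4 doubted libraries (SE 0.35).

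CTGF, a matricellular target of YAP and TGF-β, was at 83.1 to 150 CPM (median 100) with DMSO and 19.0 to 82.3 CPM (median 69.5) with ITE. The log2 fold change of CTGF was -0.76 (SE 0.26) over 12 libraries and -0.32 (SE 0.10) without the 4 doubted ones. DUSP1, a phosphatase that switches off MAP kinases, was at 210 to 282 CPM (median 242) with DMSO and 102 to 208 CPM (median 185) with ITE, a log2 fold change of -0.48 (SE 0.17), or -0.34 (SE 0.09) over 8 libraries. RCAN1, an inhibitor of calcineurin, was at 55.8 to 85.9 CPM (median 62.1) with DMSO and 36.0 to 56.3 CPM (median 47.7) with ITE, and 5 of 6 ITE libraries were below all DMSO libraries. RCAN1 had a log2 fold change of -0.51 (SE 0.16), or -0.42 (SE 0.13) over 8 libraries.

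SPRY1, a feedback inhibitor of receptor tyrosine kinase signalling, was a low gene with a log2 fold change of -1.0 (SE 0.34), or -0.66 (SE 0.32) without the 4 doubted libraries. UBE2J1, a ubiquitin-conjugating enzyme of the endoplasmic reticulum, had -0.49 (SE 0.17), or -0.34 over 8 libraries. F3, tissue factor, had -0.51 (SE 0.19), or -0.28 over 8 libraries. CPSF6, a cleavage factor of mRNA 3′ ends, had -0.35 (SE 0.14), or -0.23 over 8 libraries. None of the 8 passed the edgeR threshold with or without the 4 doubted libraries. The list of 25 immediate early genes, to which CTGF and DUSP1 belong, had 18 tested members, 8 with a positive and 10 with a negative log2 fold change (median -0.03, or -0.02 without the 4 doubted libraries). IER3, an early stress-response gene of the same list, went the other way, at 6.30 to 8.56 CPM with DMSO and 8.59 to 14.3 CPM with ITE, the highest in hypoxia + ITE replicate 6 (log2 fold change 0.53, SE 0.21, or 0.33 over 8 libraries).

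**Figure D3:**
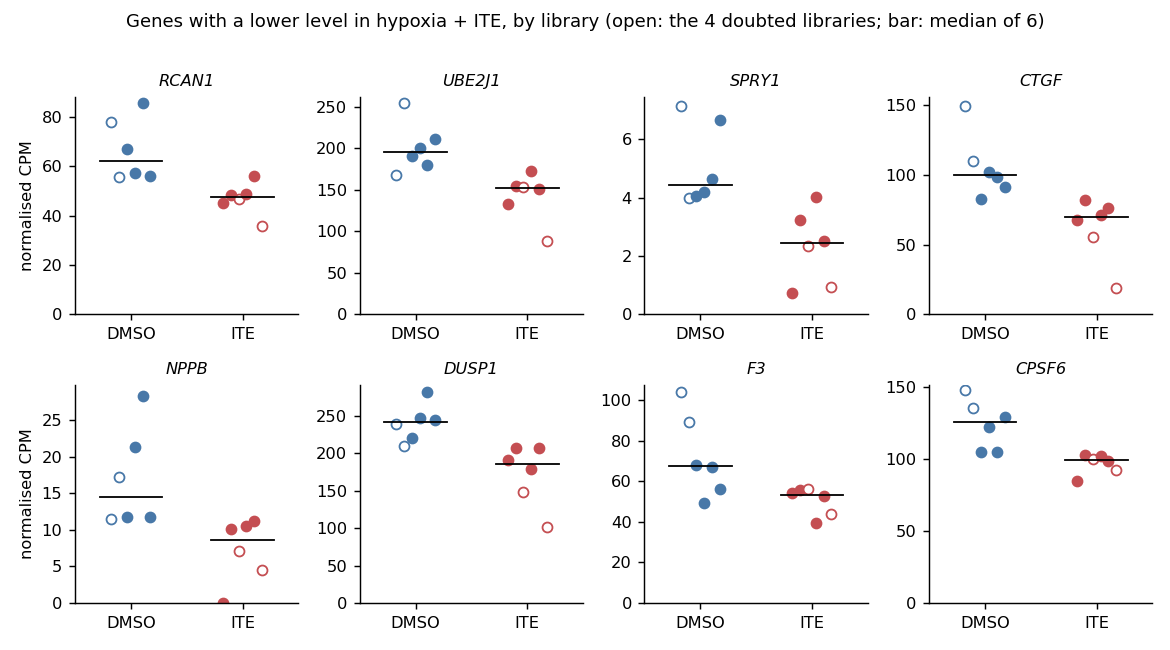
Normalised CPM (linear axes from 0) of the 8 genes with the smallest p-values among those lower in 6 of 6 same-numbered pairs; each point is a library, open circles are the 4 doubted libraries and bars are medians of 6. NPPB, CTGF, DUSP1 and CPSF6 show no overlap between hypoxia + ITE and hypoxia + DMSO, and none of the 8 passed the threshold in the 12-library edgeR fit. The 8 were picked by their values in these libraries, so the lack of overlap is not independent evidence.

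HIF targets had mostly small negative values, and 0 of them passed the edgeR threshold in either direction. Of 40 tested HIF targets outside glycolysis, 29 had a negative and 11 a positive log2 fold change, with a median of -0.21, against 0.02 over all genes tested. Without the 4 doubted libraries 35 were negative and the median was -0.20, and with quality weights 34 were negative and the median was -0.15. A single member, DDIT4, had an unadjusted p-value under 0.05. Beside 2.11% higher and 0.412% lower over all genes tested, 1 of 40 is not a result about these genes. DDIT4, an mTORC1 inhibitor induced by hypoxia, was at 312 to 398 CPM (median 361) with DMSO and 194 to 349 CPM (median 290) with ITE, a log2 fold change of -0.37 (SE 0.17), or -0.32 over 8 libraries. BHLHE41, a circadian repressor, had -0.57 (SE 0.28), or -0.64 over 8 libraries. CA9 was at 0 in all 12 libraries, and EGLN3, EPO and CA12 had between 2 and 3 counts over all 12.

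The 5 HIF targets followed by RT-qPCR in the study were looked at one by one. NDRG1, which is induced by hypoxia and differentiation, was at 224 to 360 CPM (median 323) with DMSO and 199 to 326 CPM (median 284) with ITE, and its log2 fold change was -0.16 (SE 0.17), or -0.23 (SE 0.14) without the 4 doubted libraries. PFKFB4, which makes fructose 2,6-bisphosphate, was at 42.5 to 60.2 CPM (median 51.9) with DMSO and 25.0 to 55.0 CPM (median 48.6) with ITE (log2 fold change -0.20, SE 0.18, or -0.24 over 8 libraries). INSIG2, which holds SREBP precursors in the endoplasmic reticulum, was at 62.0 to 89.0 CPM (median 75.0) with DMSO and 28.8 to 71.6 CPM (median 60.4) with ITE. Its log2 fold change was -0.39 (SE 0.20), or -0.17 (SE 0.12) over 8 libraries. ANKRD37 had -0.56 (SE 0.36), or -0.30 over 8 libraries, and ARL10 had 0.53 (SE 0.53), which turned to -0.13 over 8 libraries. In all 5 genes the groups overlapped, and the 95% confidence interval of NDRG1, -0.53 to 0.22, still held a fall of more than 0.5. Counted by same-numbered pairs, ITE was lower in 6 of 6 for NDRG1 and INSIG2, 5 for PFKFB4 and ANKRD37 and 1 for ARL10. Within pairs NDRG1 differed by -0.22 to -0.066 on the log2 scale, although the numbers were not taken to pair the samples.

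Genes of glycolysis differed in direction with and without the 4 doubted libraries. Over the 12 libraries, 12 of 21 tested genes of glycolysis and lactate export had a positive log2 fold change (median 0.04), and without the 4 doubted libraries 19 of 21 had a negative one (median -0.11). Hypoxia + ITE replicate 6 carried the upper values, with GAPDH, a core glycolytic enzyme, at 14869 CPM against 3979 to 4978 CPM in the other 5 ITE libraries. GPI, glucose phosphate isomerase, was at 991 CPM there against 308 to 355 CPM. PGK1, the first ATP-producing enzyme of the pathway, was at 1132 to 1373 CPM (median 1272) with DMSO and 888 to 1220 CPM (median 1100) with ITE, a log2 fold change of -0.25 (SE 0.13, and -0.25, SE 0.09, over 8 libraries). SLC2A1, the GLUT1 glucose transporter, had 0.02 (SE 0.15), or -0.02 over 8 libraries. No gene of the pathway passed the threshold.

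The 14 genes that the study lists as targets of both HIF and AHR, chosen partly on these samples, came next. Of the 14, 8 had a positive and 6 a negative log2 fold change (median 0.04, or 0.06 without the 4 doubted libraries), and 0 had an unadjusted p-value under 0.05. Beside 2.11% higher and 0.412% lower over all genes tested, 0 of 14 is not a result about these genes. PAX2, a renal transcription factor, had 0.31 (SE 0.22), or 0.51 (SE 0.18) without the 4 doubted libraries. WSB1, a substrate-binding subunit of a ubiquitin ligase, had -0.22 (SE 0.18) and changed sign to 0.01 over 8 libraries. NR3C1, the glucocorticoid receptor, had -0.09 (SE 0.16), or 0.04 over 8 libraries.

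No component of the AHR or HIF pathway passed the threshold in edgeR. Of 26 subunits, partners and regulators, 21 were tested, 8 with a positive and 13 with a negative log2 fold change (median -0.11, or -0.02 without the 4 doubted libraries), and 2 had an unadjusted p-value under 0.05. The share over all genes tested was 2.11% higher and 0.412% lower. AHR itself was at 33.3 to 45.2 CPM (median 38.2) with DMSO and 7.96 to 40.5 CPM (median 28.0) with ITE, where 4 of 6 libraries were below all DMSO libraries (log2 fold change -0.45, SE 0.26, or -0.16, SE 0.14, over 8 libraries). ARNT, the shared partner, was at 17.8 to 37.2 CPM (median 31.8) with DMSO and 22.2 to 36.4 CPM (median 28.7) with ITE, with a log2 fold change of -0.05 (SE 0.20), or 0.03 over 8 libraries. HIF1A had -0.18 (SE 0.16) over 12 libraries and -0.03 over 8. EPAS1, which encodes HIF-2α, had -0.19 (SE 0.18) and -0.13, and EGLN1, the main HIF prolyl hydroxylase, had -0.24 (SE 0.16) and -0.19. VHL and TCEB2, which encodes elongin B of the VHL complex, had unadjusted p-values under 0.05 at log2 fold changes of 0.71 (SE 0.30) and 0.99 (SE 0.42). Both were highest in hypoxia + ITE replicate 6, VHL at 679 CPM and TCEB2 at 876 CPM, and without the 4 doubted libraries they had 0.23 (SE 0.11) and 0.19 (SE 0.13). Counts of VHL cannot tell the transgene from the cell's own gene.

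Renal carcinoma markers had 7 of 12 positive (median 0.18, or 0.03 without the 4 doubted libraries), and the 3 tested endothelial, blood and stromal markers had a median of 0.02, or -0.04. The remaining lists had medians between -0.10 and 0.01 over the 12 libraries. NRF2 antioxidant genes had 9 of 17 positive (median 0.00), retinoid pathway genes 4 of 8 (median 0.01, with ALDH1A3 the single member under an unadjusted p-value of 0.05), and interferon and NF-kB genes 8 of 18 (median -0.04). At that cutoff 2.11% of all genes tested were higher. Cholesterol synthesis genes had 10 of 22 positive (median -0.08), and cell cycle genes 8 of 26 (median -0.10, or -0.05 without the 4 doubted libraries). Members named by their p-value were OSGIN1, an NRF2 target (0.74, SE 0.36), which had 0.17 over 8 libraries, and PCNA, the replication clamp (-0.32, SE 0.17, or -0.17 over 8 libraries). Across the genes with a known GC content (10577 of 11645), the rank correlation of the log2 fold change with GC content was 0.53 over the 12 libraries, 0.15 without hypoxia + ITE replicate 6 and 0.09 without the 4 doubted libraries. The median GC content was 58.3% for the 246 genes higher at an unadjusted p-value under 0.05, 42.8% for the 48 lower and 47.4% for all. The part of GC content in single genes was not tested beyond the fits with offsets for it, in which CYP1B1 again passed (log2 fold change 2.33, edgeR adjusted p-value 6.28e-05). No other gene passed with offsets over the 12 libraries. There SLC7A5 had 0.69 (0.88 without offsets), TPRA1 0.66 (0.92), CYP27A1 1.20 (1.39), ASB2 1.17 (1.33) and SHISA2 0.74 (0.86). TIPARP had 0.69 (0.67) and BBS12 0.66 (0.58). The GC content was 61.1% for SLC7A5, 58.8% for CYP27A1, 58.4% for ASB2, 57.9% for TPRA1 and 45.0% for CYP1B1.

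**Figure D4:**
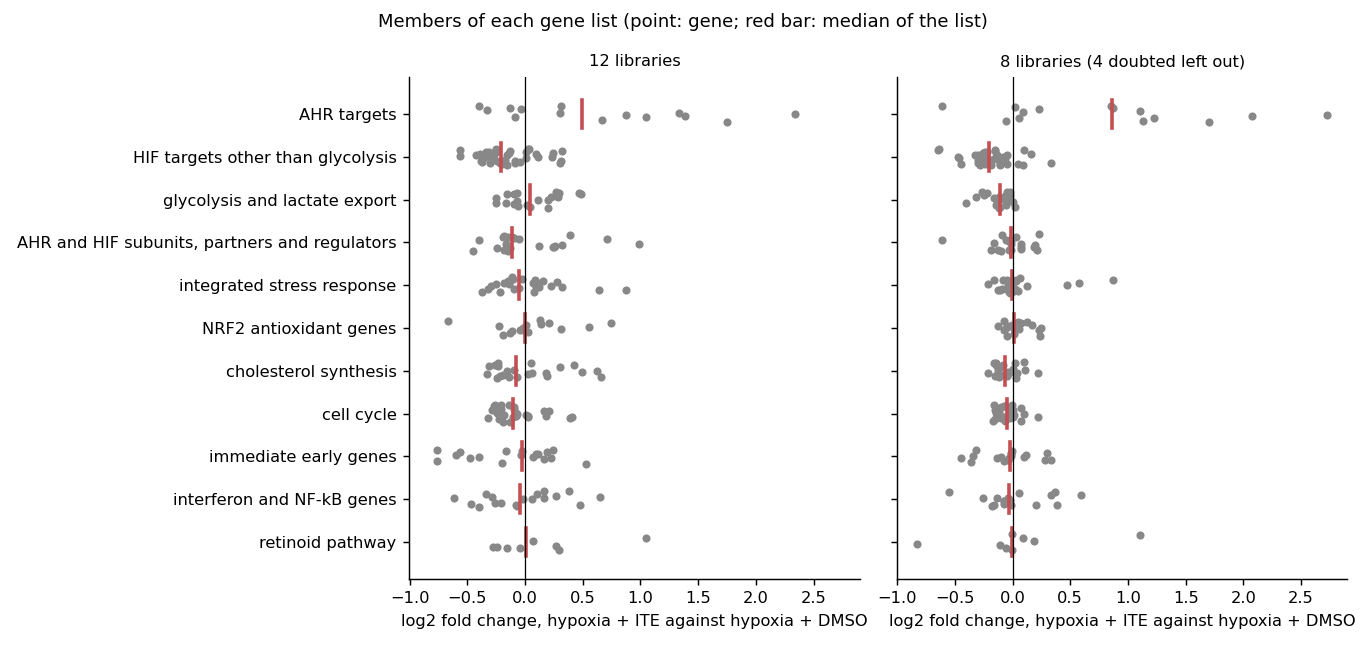
Log2 fold changes of hypoxia + ITE against hypoxia + DMSO for the tested members of 11 gene lists, with all 12 libraries (left) and without the 4 doubted ones (right); each point is a gene and red bars are medians. AHR targets have medians of 0.49 and 0.86 and HIF targets outside glycolysis -0.21 and -0.20, while glycolysis moves from 0.04 to -0.11. The AHR list includes the targets that the study followed by RT-qPCR in these cells.

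The response was then set beside that to ITE in normoxia, which shares no library with it. In the 12 normoxic libraries, whose coefficient of variation was 12.7%, edgeR called 28 genes higher and 3 lower of 11781 tested. Of the 28, 27 were tested in hypoxia, 22 had a positive log2 fold change there, and 10 of those had an unadjusted p-value under 0.05. Their median was 0.49 in normoxia, 0.26 in hypoxia and 0.33 in hypoxia without the 4 doubted libraries, where all 27 were positive. The 28 were picked by their values in normoxia, which favours large ones there, so these medians are not an equal comparison. Over all 11645 genes tested in hypoxia, 6148 were positive and 5497 negative, and 2.11% were higher at an unadjusted edgeR p-value under 0.05. Of the 3 lower genes (CEBPB, CTIF and RCAN1) 2 had a negative value in hypoxia and all 3 without the 4 doubted libraries.

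CYP1B1 had a log2 fold change of 2.51 (SE 0.11) in normoxia and 2.34 in hypoxia, and the interaction, hypoxia minus normoxia over 24 libraries, was -0.16 (SE 0.27). TIPARP had 1.36 (SE 0.07) in normoxia and 0.67 in hypoxia, with an interaction of -0.68 (SE 0.24, edgeR p-value 0.00965, adjusted 0.917). SLC7A5 had 1.21 (SE 0.08) and 0.88, with an interaction of -0.33 (SE 0.16, edgeR p-value 0.0466, adjusted 0.917). ALDH1A3 had 1.32 (SE 0.10) and 1.05, with an interaction of -0.29 (SE 0.21). SHISA2, TPRA1, CYP27A1, ASB2 and SLC3A2 had interactions between 0.04 and 0.39, each smaller than 1.5 times its standard error. WSB1, called higher in normoxia (0.35, SE 0.06), had -0.22 in hypoxia, or 0.01 over 8 libraries. The interaction of WSB1 was -0.58 (SE 0.18, edgeR p-value 0.0040, adjusted 0.917). NR3C1 (-0.40), CPSF6 (-0.32), INSIG2 (-0.51) and PGK1 (-0.30) had edgeR interaction p-values of 0.0247, 0.0292, 0.0302 and 0.0351, each 0.917 after adjustment. No gene had an interaction past the adjusted threshold in edgeR, with or without the 4 doubted libraries, and before adjustment 295 positive and 83 negative interactions had p-values under 0.05, or 177 and 115 without those libraries. A difference between the oxygen levels was therefore not shown for any single gene. STC2, a secreted glycoprotein that is a target of both factors, was among the 28, with 0.86 in normoxia, 0.31 in hypoxia and 0.09 in hypoxia without the 4 doubted libraries. It was named after its values were seen.

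**Figure D5:**
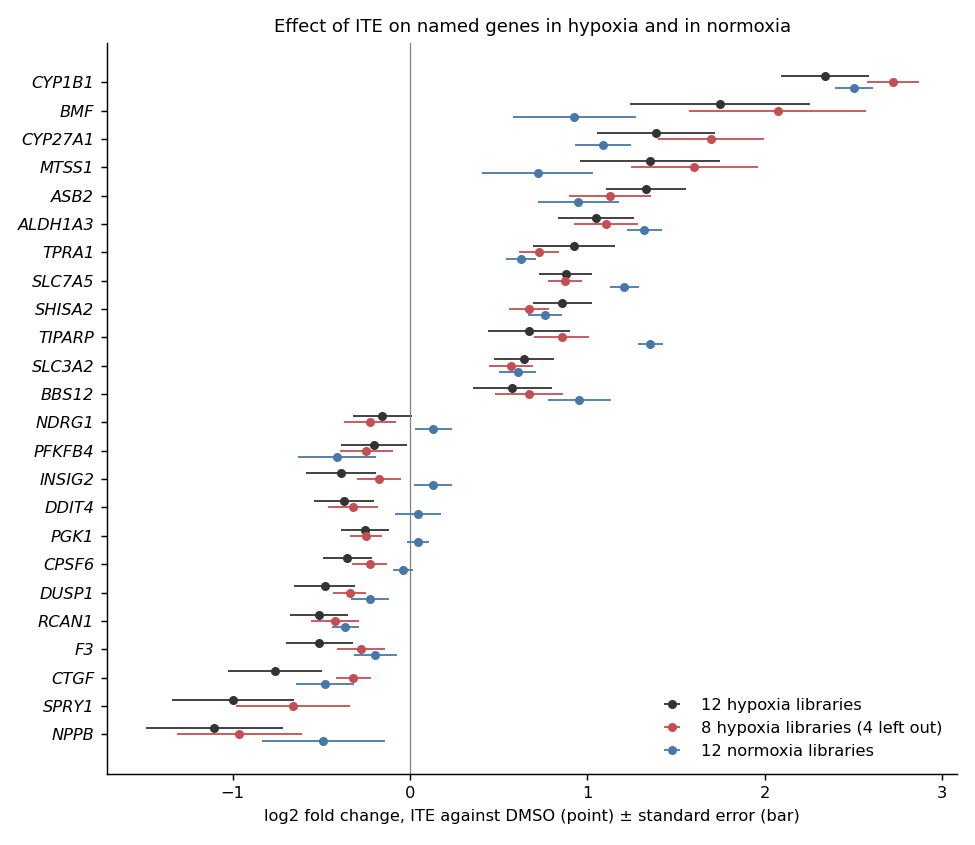
Log2 fold change (points) ± standard error (bars) of ITE against DMSO for 24 genes, in the 12 hypoxia libraries, in the 8 left without the doubted ones, and in the 12 normoxia libraries. CYP1B1 lies at 2.34, 2.72 and 2.51 in the 3 sets, and TIPARP is higher in normoxia (1.36) than in either hypoxia set. The HIF targets NDRG1 (-0.16 and -0.23), PFKFB4, INSIG2, DDIT4 and PGK1 lie below 0 in both hypoxia sets. None of these HIF targets passed the edgeR threshold there.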

How the data were processed

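RNA-seq counts from 12 hypoxic RCC4+VHL libraries (6 hypoxia + ITE, 6 hypoxia + DMSO) were analysed, with 12 normoxic libraries beside them. Per the labels and the study's methods, the authors trimmed reads (Trim Galore 0.3.3), aligned them to GRCh37 with HISAT2, dropped fragments that did not map uniquely (Picard 2.0.1), and counted the rest over UCSC genes with HTSeq 0.5.4p3. The deposited values are raw counts for 23106 gene symbols, with no normalisation, and the strand setting of counting was not given in the sources used here. Reads shared by overlapping or near-identical genes can be lost or split. Each library is a separate replicate, grouped by its label.

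In R 4.3.3, genes with at least 10 counts in at least 6 of 12 libraries (11645) were scaled by TMM and tested with edgeR 4.0.16 (glmQLFit, glmQLFTest, two-sided), with Benjamini-Hochberg adjustment over all of them and a threshold of 0.05. Replicate numbers were not used as a block, because the labels do not say what they mark. Deviations of same-numbered libraries had correlations between -0.18 and 0.23, and 2 of 6 exceeded 0.1. No 2 libraries agreed within sampling noise (chi-square per degree of freedom of at least 3.70 over 30 pairs). DESeq2 1.42.0, limma 3.58.1 with sample quality weights, other scalings and filters, GC and length offsets (splines with 5 degrees of freedom), all 24 libraries and leaving out libraries were alternatives (32 in all). The interaction of ITE and oxygen was tested over 24 libraries. Standard errors of edgeR fits are the log2 fold change divided by the square root of its F statistic. The 95% confidence intervals multiply them by a t quantile with 10 degrees of freedom. These intervals are therefore not those of the edgeR test itself. Gene lists were described by counts and medians, without a test. The pipeline was tested on simulated data.

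The comparison, the gene lists and the 4 doubted libraries were chosen with earlier results of these data known. Genes were named if called in the main or a main alternative fit (up to 10 per fit), if measured by RT-qPCR or listed as common targets in the study, if components of AHR and HIF signalling, if among the 8 smallest p-values per direction at a mean of at least 1 CPM with the same direction in 6 of 6 same-numbered pairs, or if among the 3 smallest p-values of a list. Others serve the list accounts and were named after their values were seen. Some genes that met these rules are not reported here.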

Additional observations from a re-analysis of the deposited data

Results flagged for a closer look

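In 32 of 208 groups of 6 libraries examined (named genes, list means and library measures), 1 library lay apart from the other 5 by more than Dixon's critical value for 6 samples (its gap to the nearest library, divided by the range of the group). Chance does so in about 1 in 20 groups, or 10.4 of them. Most of these were hypoxia + ITE replicate 6 or hypoxia + DMSO replicate 1, and the same libraries moved many genes together, so the groups are not independent.

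Hypoxia + ITE replicate 6 was above the other 5 ITE libraries in TPRA1 (169 CPM against 64.7 to 78.0), ARL10 (15.7 CPM), AHRR (2.34 CPM against 0.219 to 0.931), EGLN2 (250 CPM), VHL (679 CPM against 158 to 274), TCEB2 (876 CPM), GPI (991 CPM), GAPDH (14869 CPM), OSGIN1 (29.0 CPM), RXRA (102 CPM), NSDHL (236 CPM), CDT1 (247 CPM), RELB (145 CPM) and KRT8 (1924 CPM). It was below them in MOAP1 (17.1 CPM), EGLN1 (125 CPM) and CUL2 (25.3 CPM). Its genes deviated from the group median by 0.676 on the log2 scale, and its mean log2 CPM over glycolysis and lactate export was 9.13, against 8.36 to 8.52 in the others.

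Hypoxia + DMSO replicate 1 was above its group in PTGES3 (625 CPM), HSP90AA1 (3964 CPM), HSP90AB1 (2217 CPM), TCEB2 (219 CPM) and PCNA (647 CPM), and below it in EPAS1 (88.8 CPM), in the mean log2 CPM of the HIF targets measured by RT-qPCR (4.15 against 4.81 to 5.19) and in that of glycolysis and lactate export (8.21 against 8.53 to 8.67). PTGES3, HSP90AA1 and HSP90AB1 encode chaperones that hold AHR in the cytoplasm. In this library ARL10 was at 0.21 CPM (1 count) and NDRG1 was the lowest of its group (224 CPM). PFKFB4 (44.5 CPM), INSIG2 (73.5 CPM) and ANKRD37 (7.56 CPM) lay within the range of the other DMSO libraries. The low mean of the HIF targets was therefore not shared by all of them. Leaving this library out with the other doubted ones gave these HIF targets a median log2 fold change of -0.23, against -0.20 with all 12.

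Single values that lay apart elsewhere were INSIG1 in hypoxia + DMSO replicate 5 (312 CPM against 202 to 242), the mean log2 CPM of retinoid pathway genes in hypoxia + DMSO replicate 2 (4.17) and that of interferon and NF-kB genes in hypoxia + DMSO replicate 4 (4.05 against 4.46 to 4.56). Total counts lay apart in hypoxia + DMSO replicate 5 (37995687) and hypoxia + ITE replicate 4 (87404330), both deeper than the rest of their group.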

How the results depend on the processing

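CYP1B1 was called higher under all 32 alternatives. The number of genes called higher was 1 over the 12 libraries and 7 with all 24 libraries, 5 in DESeq2, 2 with the stricter filter (10 counts in all 12 libraries), 3 without the 4 doubted libraries, 11 with sample quality weights and 4 with GC and length offsets without the 4 doubted libraries. Leaving out 1 library, or 1 number of both groups, gave 1 to 3, and the 3 came without hypoxia + ITE replicate 6 (ALDH1A3, CYP1B1 and SLC7A5). No gene was called lower except with the replicate block. The replicate number as a block gave 1 higher and 0 lower in edgeR, 6 and 1 in DESeq2, and 8 and 1 with quality weights, the lower gene being NPPB both times (adjusted p-values 0.0478 and 0.0125). In edgeR with the block NPPB had a log2 fold change of -1.27 (adjusted p-value 0.974). With 2 of 6 libraries correlating best with their own number, the numbers were not taken to pair the samples.

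The median log2 fold change of AHR targets was 0.78 with no filter, 0.86 without the 4 doubted libraries and 0.88 when these were left out with GC and length offsets, and that of the AHR targets measured by RT-qPCR was 1.89 with the stricter filter. That of cholesterol synthesis was 0.0025 with the stricter filter, -0.039 with quality weights and between -0.13 and 0.0071 when a library was left out. That of immediate early genes was -0.16 with GC and length offsets and -0.21 with the block besides, and that of endothelial, blood and stromal markers was 0.79 with no filter. No interaction call appeared under any of the 3 fits.

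Among 84 named genes, 2506 of 2666 values kept their direction and call, 42 newly passed, 0 were lost and 118 changed sign, none of them for a gene called in any fit. Without the 4 doubted libraries the log2 fold changes that turned were ARL10 -0.13, MOAP1 0.0042, WSB1 0.013, NR3C1 0.038, PADI1 -0.013, SLC2A1 -0.019, ARNTL 0.077, ARNT 0.028, HSP90AA1 -0.090, RBX1 -0.019, GPI -0.063, PMVK -0.043, TOP2A 0.0067, RELB -0.031 and PDGFRB -0.044. With GC and length offsets besides, they were ARL10 -0.14, WSB1 0.034, NR3C1 0.044, PADI1 -0.037, SLC2A1 -0.013, ARNTL 0.074, ARNT 0.023, PTGES3 0.00087, HSP90AA1 -0.072, RBX1 -0.015, GPI -0.052, PMVK -0.053, TOP2A 0.032, RELB -0.050 and PDGFRB -0.052. Offsets alone gave CARD10 -0.090, SLC2A1 -0.12 and PDGFRB -0.13, and with the replicate block CARD10 -0.11, SLC2A1 -0.12 and PDGFRB -0.16. Quality weights gave MOAP1 0.040, NR3C1 0.011, PAG1 0.083, ARNT 0.086, HSP90AA1 -0.054, RBX1 -0.022, SIM1 0.051, GPI -0.015, GAPDH -0.017, OSGIN1 -0.020, RELB -0.025 and KRT8 -0.031. Weights with the block gave MOAP1 0.045, NR3C1 0.0042, SLC2A1 -0.059, ARNTL 0.35, ARNT 0.099, ARNTL2 0.011, HSP90AA1 -0.027, HIF1A 0.028, CUL2 0.020, RBX1 -0.067, SIM1 0.35, GPI -0.038, GAPDH -0.0052, KRT8 -0.13 and PDGFRB -0.053. The block alone gave VLDLR -0.012 in edgeR and VLDLR -0.0043 in DESeq2. The cause was not tested.

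Leaving out a library, or a number in both groups, gave log2 fold changes that crossed 0 for ARL10 (-0.0053 to 1.02), MOAP1 (-0.19 to 0.10), SLC2A1 (-0.053 to 0.11), ARNTL (-0.37 to 0.12), INSIG1 (-0.073 to 0.21), VLDLR (-0.29 to 0.25), ARNT (-0.16 to 0.036), AHRR (-0.70 to 0.16), PTGES3 (-0.26 to 0.019), HSP90AA1 (-0.024 to 0.35), TCEB1 (-0.35 to 0.0043), CUL2 (-0.31 to 0.031), RBX1 (-0.035 to 0.25), SIM1 (-0.71 to 0.38), RDH10 (-0.39 to 0.00059), KRT8 (-0.083 to 0.48), ACTA2 (-0.36 to 0.11) and PDGFRB (-0.13 to 0.24). Depth limits low genes most, since 3 counts were worth up to 3.90 CPM.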

Other observations

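Genes called with ITE in normoxia but not described above were read in hypoxia, with no library in common, and are named after their values were seen. CDK15, a cyclin-dependent kinase, had a log2 fold change of 1.42 in normoxia and 1.17 in hypoxia (SE 0.37, edgeR p-value 0.00603, adjusted 0.969), and 1.16 without the 4 doubted libraries. STK32B, another kinase, had 0.44 and 0.43 (SE 0.22). RIPK4, a kinase of epithelial differentiation, had 0.63 and 0.26 (SE 0.20), and FAM107B had 0.48 and 0.18 (SE 0.14). NFE2L2, which encodes NRF2, had 0.27 in normoxia and 0.00 in hypoxia, but 0.24 in hypoxia without the 4 doubted libraries. CEBPB, a bZIP factor, was lower in normoxia (-0.58) and had -0.37 (SE 0.18) in hypoxia, with 6 of 6 same-numbered pairs lower, and -0.13 without the 4 doubted libraries.

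Apart from the genes described above, ZNF490, ARHGAP44, VPS18, DAGLB, SEPHS1 and FUCA1 were among the 18 genes in which every hypoxia + ITE library lay above every hypoxia + DMSO library. CCDC14, NEDD1, GORAB, FBXO5 and TMED7 were among the 11 in which every one lay below. Whether these counts exceed chance was not tested.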
